A study of Mus musculus with 8 samples.

Results

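The effect of the α7-genotype on the distal lung after cigarette smoke (CS) was examined by RNA-Seq in 4 of the 8 libraries of the study, 1 male and 1 female library of the α7E260A:G genotype exposed to CS against 1 male and 1 female library of the α7G genotype exposed to CS. Adult mice of mostly C57BL/6 background received side-stream CS on 5 days per week for 4 months, and the other 4 libraries came from controls of both genotypes kept in room air. Mice of both genotypes carry the Chrna7-IRES-tauGFP allele, and α7E260A:G mice carry in addition a point mutation in the receptor, placed in this allele by homologous recombination and so present in every cell type. Lungs were lavaged, the trachea was removed and CD45+ cells were depleted with magnetic beads before RNA was prepared, so the libraries are of epithelium-enriched cells. How many mice went into each library is not given in the sources used here, so the p-values below measure the spread between libraries.

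The nicotinic acetylcholine receptor α7 is a ligand-gated ion channel that passes calcium when nicotine or acetylcholine binds, and it also signals through intracellular partners. It is known in macrophages for restraining inflammatory cytokine release, and it is present in several lung epithelial cell types. Alveolar macrophages clear particles and surfactant with scavenger receptors and lysosomes, and surfactant itself is made by alveolar type 2 (AT2) cells.

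The residue exchanged in α7E260A:G, named E260A, lies in the Chrna7 gene on the minus strand of chromosome 7. Counted from the start codon of the reference transcript, codon 260 encodes glutamate and lies at chr7:70250903-70250905 of NCBIM37 (mm9), in the seventh coding exon. The reference coding sequence of chr7:70250891-70250929 is shown because it holds the residue that separates the genotypes, with codon 260 in capitals.
Chrna7, codon 260 and flanks: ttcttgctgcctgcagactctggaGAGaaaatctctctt

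Chrna7 had a count of 0 in all 4 CS libraries, and a count of 0 allows up to 3 counts, or 0.332 to 0.374 RPM (counts on a gene scaled to the total counts of its library) at these depths. Expression of the mutated gene was therefore not detectable and could not be compared between genotypes, and counts do not show which allele a library carries. The CS libraries held 8020726 to 9039877 counts on coding sequences (CDS), so depth differed little between them. Values below are given for the male and then the female library of a genotype. Of 22756 genes counted, 7190 had a mean of at least 200 counts over the 8 libraries and were kept. Markers other than those of epithelium were abundant, and the 25 alveolar macrophage transcripts summed to 29266 and 35792 RPM in α7G and 54106 and 73568 RPM in α7E260A:G. Ptprc, which encodes CD45 itself, was measured at 804 and 771 RPM in α7G and 1414 and 847 RPM in α7E260A:G. These RPM are not adjusted for CDS length, with which the ratio of the male pair changed, as given below. In bulk libraries fewer cells of a type and less RNA per cell cannot be told apart, which holds for every marker below.

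The libraries also differed by a property of the transcripts. In the male pair the log2 ratio of α7E260A:G over α7G rose with CDS length, by 0.433 per doubling of length, from a median of -0.67 in the shortest of 10 length bins to 1.03 in the longest. The slope in the female pair was 0.006, and its median ratios stayed between -0.08 and 0.03 in all 10 bins. A pair of call rules was therefore used. The first is edgeR's quasi-likelihood test with the 4 groups and sex in the model, and the second is the same test with the length dependence of each library removed (length-adjusted below), both with Benjamini-Hochberg adjusted p under 0.05. The plot of the ratio against CDS length shows the difference between the pairs.

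**Figure D1:**
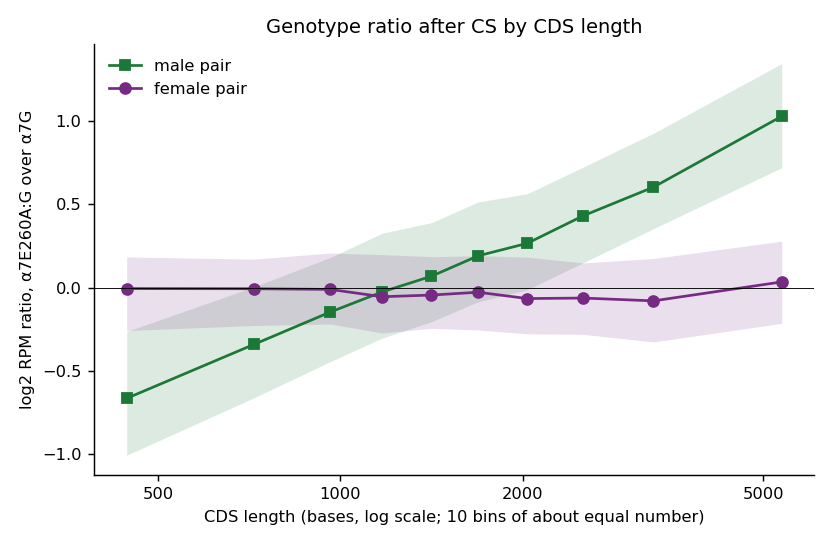
Median log2 RPM ratio of α7E260A:G over α7G after CS (vertical axis) against median CDS length (horizontal log axis, bases) of 10 bins of about 720 transcripts each. Squares are the male and circles the female pair, and bands span the quartiles of each bin. The male line climbs from -0.67 to 1.03 and the female line stays near 0.

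After CS, transcripts of alveolar macrophages and lysosomes were higher in α7E260A:G than in α7G, and transcripts of AT2 cells, airway secretory cells and B cells were lower. The medians of these lists had the same sign in controls. The scavenger receptor Msr1 rose 10.7-fold in the male and 11.4-fold in the female pair, and Trim12a, a member of the Trim5 group of antiviral genes, fell to the floor. These were the 2 transcripts called of 7190 with sex in the model, or 0.0278%. Length-adjusted, 232 transcripts were called, or 3.23%, with 151 higher (2.1%) and 81 lower (1.13%) in α7E260A:G. The length-adjusted count was 10 and 108 without the male and female α7G CS library, 11 and 17 without the male and female α7E260A:G CS library, 101 and 63 without the male and female α7G control, and 500 and 504 without the male and female α7E260A:G control, so it moved by more than 1.5-fold without any 1 of the 8 libraries. With sex alone in the model, 49 were called without the male α7E260A:G control, 42 of them among the 232, and 52 without the female α7E260A:G control.

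The genotype ratio was computed within the male pair and within the female pair, the pairs being matched by sex and exposure alone. Of the 7190 transcripts, 2320 (32.3%) were higher and 1882 (26.2%) were lower in α7E260A:G in both pairs, and 2985 went opposite ways. The ratios of both pairs correlated with r = 0.414 across transcripts, which are not independent replicates, and with r = 0.538 after length adjustment. At least 2-fold in both pairs, 68 transcripts (0.946%) were higher and 41 (0.57%) were lower. At the threshold, the smaller of both log2 ratios was 1.001 for Kcna3 and 0.999 for Ncoa4 on the higher side, and -1.001 for Grap and -0.998 for Bpifb1 on the lower side. Of the 151 and 81 length-adjusted calls, 48 and 29 were also at least 2-fold in both pairs, and 227 of the 232 had the same direction in both pairs before adjustment.

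**Figure D2:**
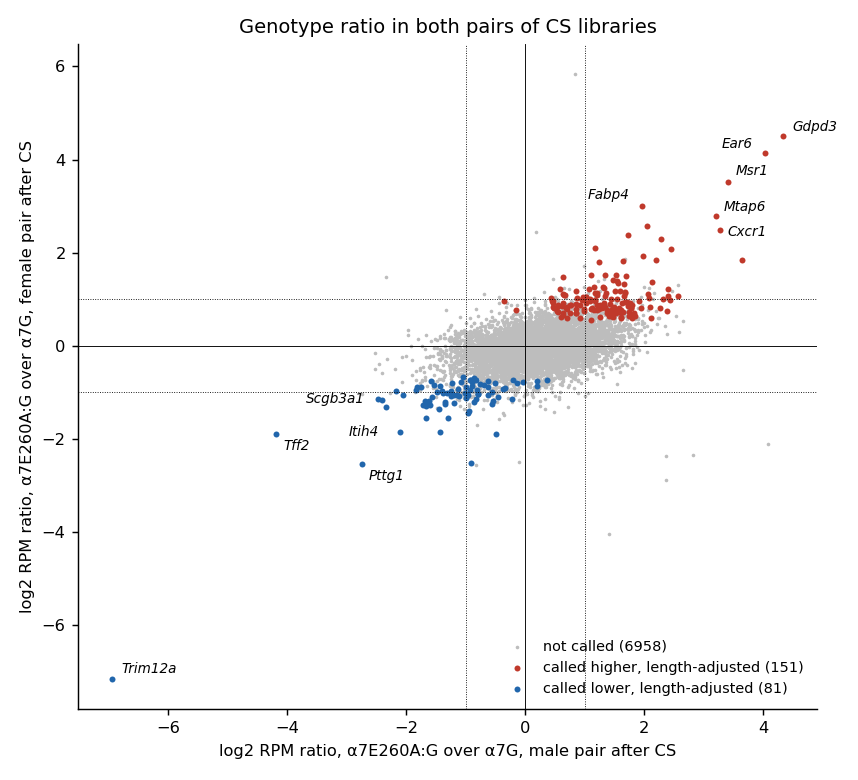
Log2 RPM ratio of α7E260A:G over α7G after CS in the male pair (horizontal) and the female pair (vertical), 1 point per transcript. Red and blue points are the 151 higher and 81 lower length-adjusted calls, dotted lines mark 2-fold, 3 transcripts without a ratio in 1 pair are not drawn, and Trim12a stands at the lower left corner, placed at the floor of 3 counts in α7E260A:G.

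Msr1 (ENSMUSG00000025044.8, chr8:40667054-40728032) encodes the class A scavenger receptor, which takes up modified lipoproteins and particles. It was measured at 6.29 and 8.23 RPM in α7G and 67.1 and 93.7 RPM in α7E260A:G. The log2 fold change of Msr1 was 3.43 ± 0.25 (SE), adjusted p = 0.0183 in edgeR's test with sex. Without the sex term its adjusted p was 0.067, and leaving out any 1 of the CS libraries gave adjusted p between 0.116 and 0.34 in edgeR's test with sex. Leaving out the male or the female α7G control gave an edgeR adjusted p of 0.0703 or 0.0832.

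Gdpd3 (ENSMUSG00000030703.7, chr7:133909928-133919157), an enzyme that cleaves lysophospholipids, was measured at 11.2 and 9.25 RPM in α7G and 225 and 209 RPM in α7E260A:G. It was 20.2-fold higher in the male and 22.6-fold in the female pair. Its edgeR adjusted p was 0.0824 with sex in the model and 0.00223 length-adjusted. Mtap6 (chr7:106415957-106485647), which encodes a protein that stabilizes microtubules, was measured at 7.45 and 8.91 RPM in α7G and 68.8 and 61.2 RPM in α7E260A:G. The length-adjusted log2 fold change of Mtap6 was 2.77 ± 0.24 (SE), adjusted p = 0.00228 by edgeR. Slc39a2, a zinc importer of the ZIP family, was measured at 38.5 and 32.0 RPM in α7G and 187 and 158 RPM in α7E260A:G. It rose by 2.38 ± 0.20 (SE), adjusted p = 0.00223, in the length-adjusted edgeR test.

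Ear6 encodes a ribonuclease of the eosinophil-associated family, whose members are alike enough in sequence that their counts may be shared. It was measured at 4.54 and 4.62 RPM in α7G and 74.3 and 81.3 RPM in α7E260A:G. Its length-adjusted log2 fold change was 4.41 ± 0.38 (SE), adjusted p = 0.00223 by edgeR. Cxcr1, a receptor for neutrophil-attracting chemokines, was measured at 27.2 and 26.5 RPM in α7G and 264 and 148 RPM in α7E260A:G, with a length-adjusted log2 fold change of 3.02 ± 0.40 (SE), adjusted p = 0.0137 by edgeR. Cxcr1 was named by its ratios in these same libraries. Of 9 listed neutrophil markers, 5 were higher and 0 lower in both pairs, against 32.3% and 26.2% of all transcripts, and 4 went opposite ways. At least 2-fold higher in both pairs were 2 of them, against 0.946% of all. The summed list overlapped between genotypes, at 1856 and 2058 RPM in α7G and 1149 and 2443 RPM in α7E260A:G. Of its 7 kept members, 0 were called by either rule.

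Gpnmb, a glycoprotein of the endolysosomal membrane, was measured at 276 and 271 RPM in α7G and 1509 and 1141 RPM in α7E260A:G. Fabp4, a fatty acid carrier of macrophages, was 3.90-fold higher in the male and 8.03-fold in the female pair, and its relative Fabp5 was 4.15-fold higher in the male and 5.91-fold in the female pair. Ch25h, which makes the signalling oxysterol 25-hydroxycholesterol, was 3.95-fold higher in the male and 3.81-fold in the female pair. Each of these rose in the length-adjusted edgeR test, with adjusted p of 0.00802 for Gpnmb, 0.0025 for Fabp4, 0.00189 for Fabp5 and 0.0138 for Ch25h. With sex in the model and no length adjustment their adjusted p lay between 0.0824 and 0.207. F10, which encodes coagulation factor X, was measured at 70.8 and 68.7 RPM in α7G and 235 and 357 RPM in α7E260A:G and rose by 2.03 ± 0.24 (SE), adjusted p = 0.01, in the same length-adjusted edgeR test.

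Trim12a (ENSMUSG00000066258.6, chr7:111448408-111463980) had 395 and 416 counts in the α7G CS libraries and 0 and 1 in the α7E260A:G CS libraries. The male pair differed by at least 123-fold, taking the floor of 3 counts, and in the female pair the ratio was 424-fold (95% exact interval 75.7 to 16800, counting error only). The log2 fold change, -9.36 ± 0.49 (SE), adjusted p = 0.00437 by edgeR, depends on the prior count and gives no size. Its neighbour Trim30d was under the count minimum, with 103 and 125 counts in α7G and 4 and 0 in α7E260A:G, and was called in a fit of all genes with a count, in which 11 of 17542 were called (0.0627%). Genes of this cluster are close copies, and reads may be divided among them.

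At the lower end, Pttg1, which encodes securin, was measured at 112 and 107 RPM in α7G and 16.7 and 18.6 RPM in α7E260A:G. It was 6.71-fold lower in the male and 5.77-fold in the female pair, with a length-adjusted log2 fold change of -2.44 ± 0.18 (SE), adjusted p = 0.00179 by edgeR. Tff2, a trefoil peptide secreted with mucus, was measured at 109 and 125 RPM in α7G and 5.98 and 34.0 RPM in α7E260A:G, and its fall was much deeper in the male than in the female pair. Scgb3a1, a secretoglobin of airway secretory cells, was measured at 3021 and 4046 RPM in α7G and 597 and 1634 RPM in α7E260A:G. Both were called length-adjusted by edgeR, with adjusted p of 0.0137 and 0.0094.

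Itih4, a heavy chain of the inter-alpha-trypsin inhibitor family, was 4.31-fold lower in the male and 3.62-fold in the female pair, and Irx1, a homeobox factor of lung epithelium, was 2.71-fold lower in the male and 3.62-fold in the female pair. Fcer2a, the low-affinity IgE receptor CD23 of B cells, was 3.17-fold lower in the male and 2.92-fold in the female pair. Gpihbp1, which anchors lipoprotein lipase to capillary endothelium, was 2.71-fold lower in the male and 2.57-fold in the female pair, and Egfl7, secreted by endothelium, was 2.46-fold lower in the male and 2.92-fold in the female pair. These 5 fell in the length-adjusted edgeR test with adjusted p between 0.01 and 0.0299. 8430408G22Rik was 2.79-fold lower in the male and 2.54-fold in the female pair but was not called, with a length-adjusted edgeR adjusted p of 0.171.

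**Figure D3:**
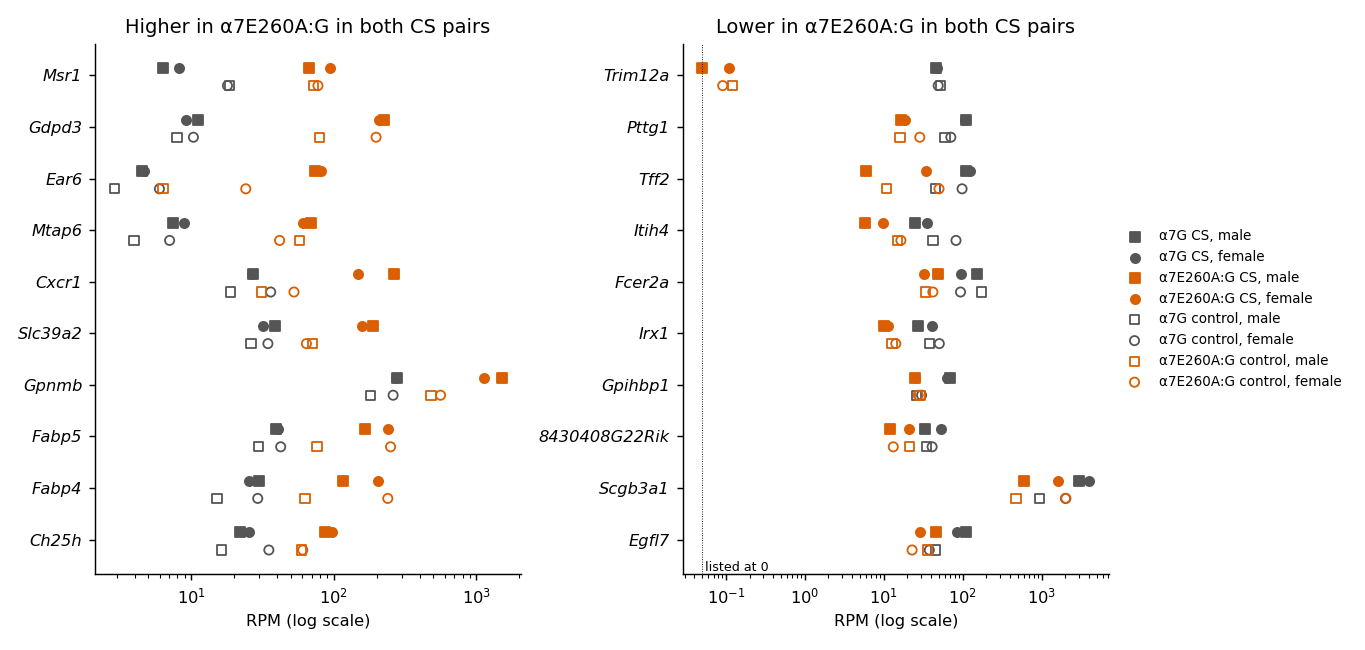
RPM (horizontal log axis) of the 20 named transcripts in each library, 10 higher on the left and 10 lower on the right. Filled symbols are CS and open symbols control libraries, grey is α7G and orange α7E260A:G, squares are male and circles female, and the dotted line marks a value listed at 0. The ranking used the CS values, so the gap between filled grey and filled orange symbols follows from the choice of transcripts, and open symbols are close together for Gpihbp1 and Cxcr1.

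Alveolar macrophage transcripts were higher in α7E260A:G. Of 25 listed and kept, 21 were higher and 1 was lower in both pairs, against 32.3% and 26.2% of all 7190 transcripts. Length-adjusted, 14 rose and 0 fell, against 2.1% and 1.13% of all. The median length-adjusted log2 fold change was 0.93 after CS and 0.84 in controls, against -0.02 and -0.01 over all 7190. Among surface receptors, all 8 were higher in both pairs and 4 were called. Cd36, higher after CS without being called, was lower in both control pairs (log2 ratios -0.672 and -0.62). Marco, a scavenger receptor for inhaled particles, was at 487 and 456 RPM in α7G and 1526 and 1618 RPM in α7E260A:G. The mannose receptor Mrc1 was at 406 and 498 RPM in α7G and 1376 and 939 RPM in α7E260A:G and the fungal glucan receptor Clec7a was at 307 and 323 RPM in α7G and 557 and 736 RPM in α7E260A:G. The summed list, as given above, did not overlap between genotypes.

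Of 6 secreted products, 4 rose. Chi3l3, a chitinase-like protein of activated macrophages, was at 9539.5 and 13141 RPM in α7G and 21207 and 31633 RPM in α7E260A:G, the chemokine Ccl6 was at 2084 and 2547 RPM in α7G and 3318 and 5465 RPM in α7E260A:G, and lysozyme, Lyz2, was at 9823 and 11529 RPM in α7G and 13647 and 20526 RPM in α7E260A:G. Lpl, lipoprotein lipase, was at 187 and 268 RPM in α7G and 648 and 494 RPM in α7E260A:G. Their length-adjusted log2 fold changes lay between 0.96 and 1.28. Among 11 intracellular markers 6 were called, including the pore-forming Mpeg1, the proton pump subunit Atp6v0d2, the sterol exporter Abcg1 and Pparg, the nuclear receptor required for alveolar macrophage identity. Pparg was at 115 and 117 RPM in α7G and 244 and 234 RPM in α7E260A:G, with a length-adjusted log2 fold change of 1.00 ± 0.15 (SE), adjusted p = 0.0214 by edgeR.

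Lysosomal transcripts were higher over most of the list. Of 31 listed, 29 were higher and 1 lower in both pairs, against 32.3% and 26.2% of all transcripts. Of the 30 kept, 10 rose and 0 fell length-adjusted, against 2.1% and 1.13% of all. The median length-adjusted log2 fold change was 0.69 after CS and 0.47 in controls. The list summed to 20740 and 21042 RPM in α7G and 37444 and 39058 RPM in α7E260A:G. All 10 proteases were higher in both pairs, and the aspartic protease Ctsd was at 4384 and 4904 RPM in α7G and 10128 and 10411 RPM in α7E260A:G (log2 fold change 1.10 ± 0.19 (SE), adjusted p = 0.0311, length-adjusted edgeR). Of the hydrolases Lipa, the lysosomal acid lipase, was at 291 and 246 RPM in α7G and 574 and 507 RPM in α7E260A:G. Psap, the precursor of sphingolipid activators, Cd68, Lamp1, Grn and the cholesterol transporter Npc1 were the called membrane and accessory members, and Psap was at 2819 and 2561 RPM in α7G and 6397 and 4959 RPM in α7E260A:G. Smpd1, acid sphingomyelinase, was not called, with a log2 fold change of -0.18 ± 0.15 (SE).

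Markers of interstitial macrophages and monocytes were mixed. Of 11, 4 were higher and 3 lower in both pairs, 0 of the 9 kept were called by either rule, and the list summed to 1306 and 1261 RPM in α7G and 1199 and 1091 RPM in α7E260A:G. Apoe, a lipid carrier of these cells, was at 736 and 729 RPM in α7G and 450.5 and 456 RPM in α7E260A:G without being called (length-adjusted edgeR adjusted p = 0.248). Whether the 2 macrophage lists differ from each other was not tested.

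AT2 transcripts were lower. Of 13, 9 were lower and 0 higher in both pairs, against 26.2% and 32.3% of all transcripts. Of the 11 kept, 3 fell length-adjusted, against 1.13% of all. The median length-adjusted log2 fold change was -0.99 after CS and -1.33 in controls. Surfactant proteins led the list. Sftpc, which marks AT2 cells, was at 12914 and 20144 RPM in α7G and 2323 and 9170.4 RPM in α7E260A:G (log2 fold change -1.51 ± 0.32 (SE), adjusted p = 0.0479, length-adjusted edgeR), and Sftpd, a collectin of host defence, was at 816 and 1469 RPM in α7G and 278 and 687 RPM in α7E260A:G. Sftpb and Sftpa1 were lower in both pairs without being called, with length-adjusted log2 fold changes of -1.17 ± 0.32 and -1.22 ± 0.28 (SE). Lpcat1, which makes surfactant phosphatidylcholine, was the other called member and was at 92.3 and 128 RPM in α7G and 53.5 and 62.8 RPM in α7E260A:G. The list summed to 20839 and 31457 RPM in α7G and 5327 and 15548 RPM in α7E260A:G, so the drop was deeper in the male pair. Short transcripts as a class were also lower in that pair, and what part CDS length had in the drop was not tested.

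Among 14 transcripts of club and other secretory airway cells, 12 were lower and 2 higher in both pairs, against 26.2% and 32.3% of all transcripts. Length-adjusted, 6 fell and 0 rose, against 1.13% and 2.1% of all. The median length-adjusted log2 fold change was -0.93 after CS and -0.74 in controls. Scgb3a2, a secretoglobin of the distal airway, was at 4575 and 5185 RPM in α7G and 1532 and 3093 RPM in α7E260A:G. Bpifb1, a secreted defence protein of the airway lining, was at 926 and 1300.3 RPM in α7G and 332 and 651 RPM in α7E260A:G. Its relative Bpifa1 was at 4415 and 5084 RPM in α7G and 1893 and 2909 RPM in α7E260A:G. Scgb1a1, the major club cell product, was at 43965 and 58080.4 RPM in α7G and 10452 and 33884 RPM in α7E260A:G and was not called (length-adjusted edgeR adjusted p = 0.141). The exceptions were Aldh1a1, a retinal and aldehyde oxidising enzyme, which was at 2242 and 1838 RPM in α7G and 2829.7 and 2371 RPM in α7E260A:G, and Ltf, lactoferrin, which was at 157 and 239 RPM in α7G and 254 and 367 RPM in α7E260A:G, and neither was called.

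Other epithelial markers differed by list. Of 6 junction and keratin transcripts, 4 were lower and 0 higher in both pairs, against 26.2% and 32.3% of all transcripts. Their median length-adjusted log2 fold change was -0.76 after CS and -0.79 in controls, and 1 was called. Epcam, the antigen by which the purity of the preparation was judged, was at 212 and 168 RPM in α7G and 78.5 and 92.3 RPM in α7E260A:G and fell by 1.07 on the log2 scale (length-adjusted edgeR adjusted p = 0.0363). Of 9 alveolar type 1 markers, 7 were lower and 1 higher in both pairs, against 26.2% and 32.3% of all transcripts, and 0 of 6 kept were called. Ager, the receptor for advanced glycation end products, was at 211 and 288 RPM in α7G and 65.6 and 182 RPM in α7E260A:G. Of 23 ciliated cell transcripts, 8 were higher and 5 lower in both pairs and 0 of 20 kept were called. The 8 kept axonemal dynein heavy chains, motor proteins with very long coding sequences, had male pair log2 ratios between 0.98 and 1.97 and female pair ratios between -0.32 and 0.56. Their median length-adjusted log2 fold change was 0.004, and 0 of them were called. The 5 basal cell markers were all under the count minimum.

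**Figure D4:**
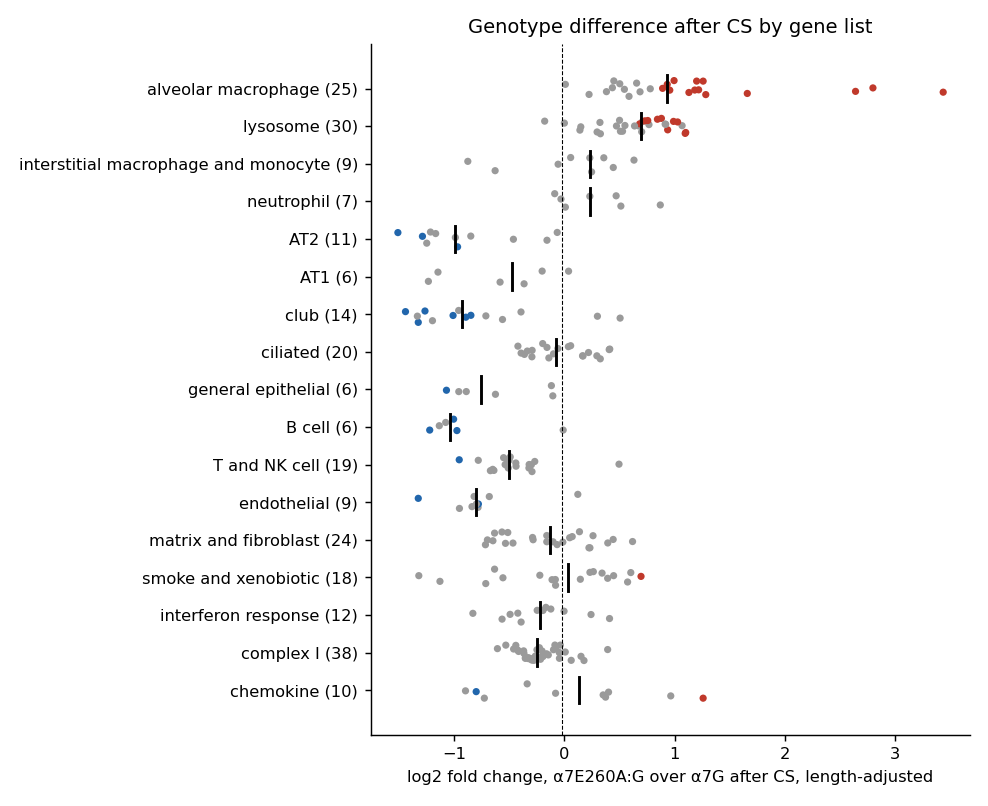
Length-adjusted log2 fold change of α7E260A:G over α7G after CS (horizontal) for the kept members of 17 gene lists, number of members in brackets. Red points rose and blue points fell at adjusted p under 0.05, vertical bars are list medians, and the dashed line is the median of all 7190 transcripts; red points gather in the alveolar macrophage and lysosome rows and blue points in the AT2, club and B cell rows.

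In the lists of lymphocyte and endothelial transcripts, 0 members were called with sex in the model. Length-adjusted calls are read against the 1.13% of all transcripts that were called lower, and directions against the 26.2% lower in both pairs. Of 6 B cell markers, 5 were lower in both pairs and 3 fell length-adjusted, with a median log2 fold change of -1.04 after CS and -0.86 in controls. Cd79a, a signalling chain of the B cell receptor, was at 726 and 553 RPM in α7G and 234 and 241 RPM in α7E260A:G, and Ms4a1 (CD20) was at 316 and 252 RPM in α7G and 133 and 129 RPM in α7E260A:G. Cd74, the invariant chain that guides MHC class II, was at 4422 and 4191 RPM in α7G and 1379.8 and 1849 RPM in α7E260A:G and fell by 1.30 on the log2 scale (length-adjusted edgeR adjusted p = 0.0363). The study describes Cd74 in AT2 cells. Of 3 listed class II presentation transcripts, 2 were lower and 1 higher in both pairs. They summed to 7322 and 7464 RPM in α7G and 5801 and 8800 RPM in α7E260A:G. Ccr7, the receptor that leads lymphocytes and dendritic cells to lymph nodes, was at 249 and 169 RPM in α7G and 132 and 101 RPM in α7E260A:G and fell as well. Of 20 T and NK cell transcripts, 17 were lower and 1 higher in both pairs, with a median length-adjusted log2 fold change of -0.50 after CS and -0.01 in controls. Of the 19 kept, 1 was called, Ccl5, a chemokine of effector T cells, at 398 and 378 RPM in α7G and 111 and 194 RPM in α7E260A:G. Of 10 endothelial markers 8 were lower in both pairs, and of the 9 kept 2, Pecam1 (CD31) and Egfl7, fell length-adjusted, Pecam1 being at 203 and 199 RPM in α7G and 160.1 and 106 RPM in α7E260A:G. The purity given in the labels is for EpCAM and CD31, and these markers show that RNA of other cells was present in all 4 libraries.

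Gene groups tied to smoke itself were read against the 3.23% of all transcripts called length-adjusted. Of 25 transcripts of the aryl hydrocarbon receptor, NRF2 and aldehyde pathways, 18 were kept and 1 was called. This was Hmox1, heme oxygenase, which degrades heme and is an NRF2 target, and it was at 118 and 115 RPM in α7G and 179.5 and 178 RPM in α7E260A:G (log2 fold change 0.70 ± 0.14 (SE), adjusted p = 0.0446, length-adjusted edgeR). Gsr, glutathione reductase, was not in this list and was among the transcripts called lower, with its values given under other observations. Aldh3a1, an aldehyde dehydrogenase of airway epithelium, had 329 and 124 RPM in α7G and 57.5 and 112 RPM in α7E260A:G, with a wide spread within α7G, and was not called. Of 11 matrix proteases and inhibitors, 8 were kept and 0 called, with Mmp12, macrophage elastase, at 1.28 and 8.12 RPM in α7G and 8.10 and 11.7 RPM in α7E260A:G. Of 21 interferon response transcripts 12 were lower and 5 higher in both pairs and 0 of 12 kept were called. In 12 nicotinic receptor subunits and partners 1 had a mean of at least 10 counts in the CS libraries, and 0 of 5 kept signalling transcripts downstream of them were called.

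Genes of mitochondrial complex I and of the extracellular matrix had ratios that differed between the pairs. Complex I subunits couple NADH oxidation to proton transport, and the 41 with a mean of at least 10 counts in the CS libraries had a median log2 ratio of -0.98 in the male pair and -0.01 in the female pair. Of the 38 kept, 0 were called by either rule, and their median length-adjusted log2 fold change was -0.25. Of 27 matrix and fibroblast transcripts, 6 were higher and 5 lower in both pairs, 16 went opposite ways and 0 of 24 kept were called. The 4 kept fibrillar collagens were higher in both pairs, with a median length-adjusted log2 fold change of 0.42. The 5 kept red cell precursor transcripts also went opposite ways, and with 1 more under the count minimum they summed to 9395 RPM in the male α7E260A:G library, 1545 and 1145 RPM in α7G and 198 RPM in the female α7E260A:G library. What part blood in the male library had in any result was not tested.

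The genotype ratios were also computed in the 2 control pairs, which share no library with the CS pairs. The calls after CS come from a model of all 8 libraries, so the controls entered its estimate of the spread, its sex term and the count minimum. Of the 151 transcripts higher after CS, 130 (86.1%) were higher in both control pairs as well, against 12.3% of all transcripts, and of the 81 lower 73 (90.1%) were lower in both control pairs, against 37% of all. Between the control libraries 107 transcripts were called in the same length-adjusted edgeR model (1.49%), and 69 of these were among the 232. The median log2 difference of the transcripts higher after CS was 1.03 after CS and 0.73 in controls, and of those lower -1.07 and -0.75. The CS values chose the transcripts, so a smaller control value is not by itself a difference between exposures. At least 2-fold in all 4 pairs, 13 were higher, among them Msr1, Gdpd3, Mtap6, F10, Fabp4, Fabp5, Gpnmb and Marco, and 16 were lower, among them Trim12a, Pttg1, Itih4, Irx1, Fcer2a, Sftpc and Sftpd.

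**Figure D5:**
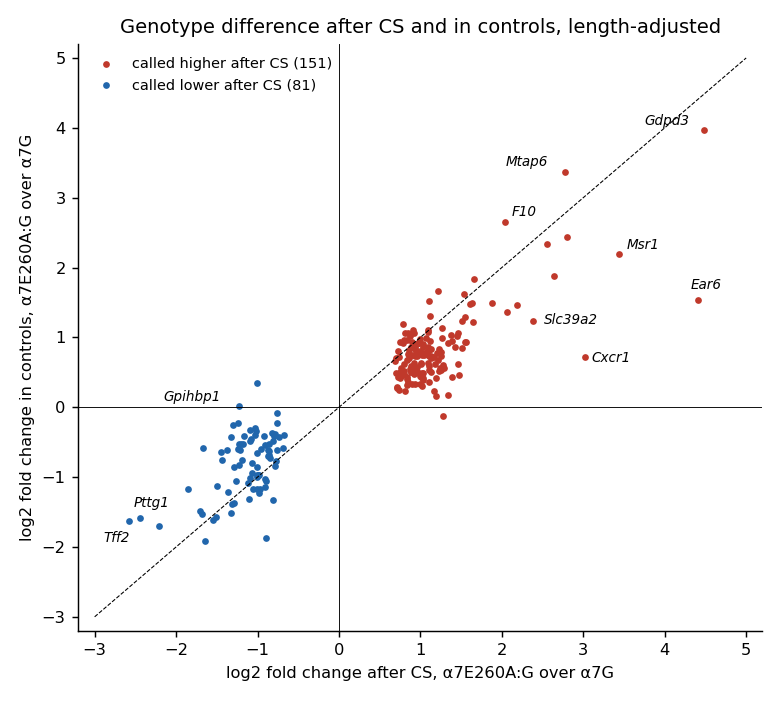
Length-adjusted log2 fold change of α7E260A:G over α7G after CS (horizontal) and in controls (vertical) for the 151 higher (red) and 81 lower (blue) transcripts called after CS, with the dashed line where both are equal. Trim12a, at -9.29 and -8.61, is outside the axes. Gdpd3 and Mtap6 lie near the line, and Cxcr1 and Ear6 lie below it.

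Trim12a, Gdpd3 and Mtap6 showed the genotype difference at both exposures, with control values of 7.94 and 10.3 RPM in α7G and 79.0 and 198 RPM in α7E260A:G for Gdpd3 and 3.97 and 7.04 RPM in α7G and 57.3 and 41.7 RPM in α7E260A:G for Mtap6. The control values of Cxcr1 were 18.9 and 36.1 RPM in α7G and 30.9 and 52.5 RPM in α7E260A:G. Ear6 had 2.89 and 5.98 RPM in α7G and 6.34 and 24.1 RPM in α7E260A:G in controls, and Gpihbp1, at 26.2 and 30.2 RPM in α7G and 28.9 and 27.4 RPM in α7E260A:G, overlapped between the genotypes there. The test of the difference between exposures called 0 of 7190 transcripts (0%) with edgeR, with 221 at an unadjusted p under 0.05, and 0 (0%) length-adjusted with 357. DESeq2 called 1, Inmt, a methyltransferase of lung fibroblasts. For Ear6 the difference between exposures was 2.87 ± 0.52 (SE), adjusted p = 0.834 in the length-adjusted edgeR test, for Cxcr1 2.29 ± 0.54 (SE), adjusted p = 0.834 and for Gpihbp1 -1.24 ± 0.29 (SE), adjusted p = 0.834, so none of them was shown to depend on CS.

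On chromosome 7, 22 of 551 transcripts were called length-adjusted, or 3.99%, against 3.23% of all. Of these 22, 9 were higher and 13 lower in α7E260A:G, whereas over all transcripts 151 were higher and 81 lower. Whether chromosome 7 differs from the others in this was not tested. Within 10 Mb of Chrna7, 17 transcripts were kept, and 0 of them were called or at least 2-fold apart in both pairs, with length-adjusted log2 fold changes between -0.56 and 0.68. Of the 20 transcripts named by rank, 3 are on chromosome 7, all farther from Chrna7, with Mtap6 at 36.1 Mb, Trim12a at 41.1 Mb and Gdpd3 at 63.6 Mb.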

How the data were processed

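Per the labels and the study's methods, the authors aligned stranded mRNA reads with STAR to mm9 (NCBIM37) and counted them on CDS with HTSeq and GENCODE M1, tool versions not being given in the sources used here, and deposited raw counts of 22756 genes per library. All 22756 were matched by identifier and symbol to GENCODE M1, which gave coordinates and CDS lengths. Genes with a mean of at least 200 counts over 8 libraries were kept, and 188 immunoglobulin, histocompatibility, Gm and ribosomal genes were left out by name. RPM were counts over library totals. Ratios used a floor of 3 counts.

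Counts were tested with edgeR 4.0.16 (R 4.3.3, TMM, glmQLFTest) in the 8 libraries with 4 groups and sex, standard errors being derived from the F statistic, and again with a lowess offset (span 0.667) on CDS length. Named transcripts were the 10 highest and 10 lowest, called ones first and then by the smaller of both pair ratios, with F10, Chrna7, and members of gene lists. Other genes were named after their values were seen. Members, lists and rules were chosen with earlier results of these data known. Sex was kept as a term because the labels name it. Same-sex deviations of the genotypes after CS correlated with r = 0.066 (0.222 length-adjusted), so the term was not read as pairing. Between α7E260A:G controls and α7E260A:G after CS this r was 0.836 (0.656 length-adjusted). As each group holds a male and a female library, the residual spread includes sex differences that vary between groups. The tests were run on simulated counts drawn with a common dispersion and without a CDS length trend or a sex effect. That run could not check how well the offset removes a length trend. DESeq2 1.42.0 and other settings were alternatives. Some members of the gene lists are counted in the totals but not reported here by name.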

Additional observations from a re-analysis of the deposited data

Results flagged for a closer look

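Outside the filtered transcripts, 3 genes were called in edgeR's test with sex over all 17542 genes with at least 1 count, in which 11 were called (0.0627%). The processed pseudogene Rps13-ps1 had 0 counts in both α7G CS libraries and 352 and 575 in α7E260A:G (log2 fold change 12.06, which depends on the prior count), that is at least 126-fold and 188-fold at the floor of 3 counts, and in controls 0 and 1 against 206 and 813. Gm9000, a gene model left out by name, had 10 and 13 counts in α7G CS and 491 and 279 in α7E260A:G CS (log2 fold change 5.05), but 4 and 5 in α7G control and 7 and 10 in α7E260A:G control. Trim30d, near Trim12a, had a log2 fold change of -5.76, and control counts of 232 and 195 against 5 and 7. Each is a copy or close relative of other genes, so its counts may hold their reads.

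Of all 7190 transcripts, 32.3% were higher and 26.2% lower in both CS pairs, and 12.3% were higher and 37% lower in both control pairs. The next 2 counts were not tested against these shares. Higher in both CS pairs and lower in both control pairs were 539 transcripts, and 98 were the reverse. Of the transcripts followed by name 3 were among these, with edgeR interaction log2 values, with sex in the model, of 0.71 for Aldh1a1, 1.24 for Ltf and -1.73 for Serpina3g. None passed an adjusted p of 0.05. Members of the alveolar macrophage list reversed as well, also without being called between exposures. Cd36 had log2 ratios of 0.403 and 0.417 in the CS pairs and -0.672 and -0.62 in the control pairs. Fabp1 had -0.658 and -0.02 in the CS pairs and 0.592 and 1.945 in the control pairs. Serpina3g, a serine protease inhibitor of activated leukocytes, was at 35.1 and 28.9 RPM in α7G and 14.1 and 14.4 RPM in α7E260A:G after CS and had 27.3 and 27.3 RPM in α7G and 28.3 and 40.1 RPM in α7E260A:G in controls.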

How the results depend on the processing

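The number of transcripts called after CS, 2 with sex in the model, was 1 with no replicate block, 4 with filterByExpr, 11 with all genes with a count, 12 and 300 in the 4 CS libraries alone without and with the block, 257 by DESeq2, and 232 with the length offset and the block (79 without the block), and 2 with library size scaling. The cause of the higher count by DESeq2 was not tested. Leaving out 1 CS library gave 0 to 1, being 0 without either α7E260A:G library and 1, Trim12a, without either α7G library. Leaving out the male α7E260A:G control, whose counts depend most on CDS length and which was left out after seeing the data, gave 49, of which 42 were among the 232. The other controls were left out later, giving 52 without the female α7E260A:G control and 1, Trim12a, without either α7G control. The length-adjusted count of 232 was 79 without the block, 10 and 108 without the male and female α7G library, 11 and 17 without the male and female α7E260A:G library, 101 and 63 without the male and female α7G control, and 500 and 504 without the male and female α7E260A:G control. The 68 and 41 transcripts at least 2-fold apart in both pairs became 135 and 103 when the count minimum was 50, and 299 and 194 at 1.5-fold. The test between exposures called 1 transcript by DESeq2 and 0 in the edgeR settings. All 1734 alternative log2 values of the 102 transcripts followed kept their direction. These transcripts were partly chosen by their values in these libraries, and the settings share the same counts. The kept direction is therefore not an independent check. The sex block rests on labels naming a male and a female library per group. With 2 libraries per group, differences of single mice, lines and preparations cannot be told apart from genotype.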

Other observations

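Of the length-adjusted calls, 25 of the 151 higher and 19 of the 81 lower transcripts belonged to the gene lists, and others were picked for description after their values were seen. The nucleic acid sensors Tlr7, Tlr8 and Tlr13 were higher, Tlr7 at 98.8 and 162 RPM in α7G and 254 and 358 RPM in α7E260A:G, Tlr8 at 67.6 and 173 RPM in α7G and 214 and 362 RPM in α7E260A:G and Tlr13 at 80.2 and 63.1 RPM in α7G and 204 and 179.9 RPM in α7E260A:G, and each had a length-adjusted log2 fold change between 0.98 and 1.17. Among myeloid receptors picked in the same way were Cd200r1 at 33.9 and 41.6 RPM in α7G and 97.6 and 119 RPM in α7E260A:G, Lilra5 at 93.0 and 125 RPM in α7G and 259 and 335 RPM in α7E260A:G, Cd300lf at 48.8 and 49.3 RPM in α7G and 122 and 117 RPM in α7E260A:G and Lilrb4 at 176 and 179.8 RPM in α7G and 398 and 396 RPM in α7E260A:G, with edgeR length-adjusted p between 0.00533 and 0.0204. Trem2, a lipid-sensing receptor, was at 36.2 and 36.3 RPM in α7G and 106 and 95.8 RPM in α7E260A:G, and Olr1, a receptor for oxidised lipoprotein, was at 53.6 and 62.7 RPM in α7G and 162 and 141 RPM in α7E260A:G. The receptors for apoptotic cells Mertk and Axl were at 105 and 118 RPM in α7G and 348 and 214 RPM in α7E260A:G, and at 411 and 452 RPM in α7G and 982 and 696 RPM in α7E260A:G. Csf2rb and Csf2rb2, the shared and the interleukin-3 specific signalling chain, were at 145 and 171 RPM in α7G and 393 and 266 RPM in α7E260A:G, and at 56.0 and 53.7 RPM in α7G and 129.8 and 91.4 RPM in α7E260A:G, and as close copies may share reads. Adam17, the protease that sheds tumor necrosis factor, was at 76.9 and 97.1 RPM in α7G and 221 and 159 RPM in α7E260A:G.

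Among the lower ones, Chi3l1, a chitinase-like protein of epithelium and myeloid cells, was at 503 and 596 RPM in α7G and 95.5 and 267 RPM in α7E260A:G (length-adjusted log2 fold change -1.71 ± 0.29 (SE), adjusted p = 0.0294, edgeR). Chad, a matrix protein, was at 55.8 and 78.0 RPM in α7G and 18.3 and 32.5 RPM in α7E260A:G. The B cell transcripts Fcrla and Cxcr5 were at 193 and 144 RPM in α7G and 61.1 and 58.9 RPM in α7E260A:G, and at 97.2 and 64.6 RPM in α7G and 42.3 and 31.0 RPM in α7E260A:G, and the lymphocyte GTPases Gimap1 and Gimap6 were at 122 and 109 RPM in α7G and 63.8 and 56.5 RPM in α7E260A:G, and at 371 and 308 RPM in α7G and 186 and 166 RPM in α7E260A:G. Icam2, an adhesion molecule of endothelium, was at 182 and 147 RPM in α7G and 71.6 and 61.6 RPM in α7E260A:G, with a control log2 fold change of -0.22. Complement component Hc (C5) was at 139.7 and 339 RPM in α7G and 72.2 and 124 RPM in α7E260A:G, wide apart within α7G. Gsr, glutathione reductase, was at 179 and 162 RPM in α7G and 98.7 and 99.8 RPM in α7E260A:G and was also lower in controls, with a control log2 fold change of -1.33.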
